A study of Ovis aries with 5 samples.

Results

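The chromatin around BCO2 and DGAT1, a pair of genes of fat metabolism that lie in regions of positive selection in domestic sheep, was described in fetal fat. The members were all ChIP-seq peaks and regions within 250 kb of the sweep region that holds each gene. In coordinates of the sheep assembly Oar_v3.1, the BCO2 sweep region spans 110 kb (chr15:21900001-22010000) and the DGAT1 sweep region 40 kb (chr9:13570001-13610000), which gave windows of 610 and 540 kb. They held 191 of the 213217 peaks called in the 4 libraries, and 62 of the 83306 regions of the 3 joint lists, 37 near BCO2 and 25 near DGAT1. The joint lists hold the overlapping peaks of both libraries of a mark, merged by the authors. Tags are the mapped reads that MACS counted in a peak, and normalised tags are tags per 1000000 tags of the library.

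The tissue was perirenal adipose tissue, the fat around the kidney, from 2 wild type, pure bred merino fetuses labelled as 132 days old, with no treatment given in the labels. H3K4me3 and H3K27ac were each measured in 1 library per fetus, called replicate 1 and replicate 2, and 1 input library pooled from the fetuses was the control for all 4. The study holds no second tissue, age or treatment, so the comparisons available were those between the 2 animals, between the marks, between the loci and against the rest of the genome. After duplicates were removed, the H3K4me3 libraries held 92882463 and 109652707 tags, the H3K27ac libraries 144038222 and 145716523, and the input 26651829. The tissue label was not checked against marker genes, because no gene annotation of Oar_v3.1 was used here.

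BCO2 encodes a dioxygenase of the mitochondrion that cleaves carotenoids, the yellow plant pigments, and loss of its function is known to give sheep yellow fat. DGAT1 encodes the acyltransferase that completes a triacylglycerol, the form in which fat cells store fatty acids, and the gene is best known for its effect on milk fat in cattle. H3K4me3 marks active promoters, H3K27ac marks active promoters and enhancers, and H3K27me3 is the mark of Polycomb repression. Following the study, a joint H3K4me3 region is called promoter-like, and a joint H3K27ac region that overlaps no joint H3K4me3 region is called enhancer-like. Fat tissue holds many cell types, and in bulk chromatin a mark in fewer cells and less of the mark in every cell cannot be told apart.

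The study lists IL18, which encodes a cytokine, and TEX12, which encodes a protein of the meiotic synaptonemal complex, for the same sweep region as BCO2. It lists HSF1, a transcription factor of the heat shock response, and BOP1, a factor of ribosome biogenesis, beside DGAT1. In the RefSeq annotation of another sheep assembly (ARS-UI_Ramb_v3.0), the order of genes is SDHD, IL18, TEX12, BCO2, PTS at the first locus and SCRT1, DGAT1, HSF1, BOP1, SCX at the second. That order gives neighbours only, so the regions below are named by position and were not assigned to a gene's start.

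Near BCO2 both active marks were dense and mostly lay together. The window held 11 promoter-like regions, 17 H3K27ac regions and 9 H3K27me3 regions. H3K27ac covered 9.86% of it and H3K4me3 4.94%, against 7.14% and 2.07% of the genome. Of the 11 promoter-like regions, 9 (81.8%, 95% Wilson interval 52.3 to 94.9%) overlapped a joint H3K27ac region, where the share over all 16098 was 55.2%. Of the 17 H3K27ac regions, 8 (47.1%, interval 26.2 to 69.0%) were enhancer-like, where the share over all 35266 was 75.1%. These intervals cover counting error only, and neighbouring regions are not independent of each other.

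Near DGAT1 there were more promoter-like regions and few H3K27ac regions in the joint list. The window held 16 promoter-like regions, 2 H3K27ac regions and 7 H3K27me3 regions. H3K4me3 covered 8.07% of it, H3K27ac 0.708% and H3K27me3 2.91%. Of the 16 promoter-like regions, 1 (6.25%, interval 1.11 to 28.3%) overlapped a joint H3K27ac region, beside the 55.2% over all promoter-like regions. The interval near DGAT1 does not reach that of BCO2, but such intervals treat neighbouring regions as independent, and the 2 loci were not compared by a test. With H3K27ac peaks of replicate 1 alone, the intervals were 62.3 to 98.4% near BCO2 and 23.1 to 66.8% near DGAT1, which overlap. With replicate 2 alone they were 52.3 to 94.9% and 3.50 to 36.0%, which do not.

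The scarcity of H3K27ac near DGAT1 was set against windows of the same length laid end to end along the autosomes. Of 4525 such windows, 105 (2.32%) held at least 16 H3K4me3 regions, and the median window held 2, while 3313 (73.2%) held at least 2 H3K27ac regions. Among those 105 windows, the median was 14 H3K27ac regions, and 2 (1.90%) held at most 2. Among the 90 windows within 2 of the H3K4me3 count of DGAT1, the median was 13, and 3 (3.33%) held at most 2. The scarcity was also present in each library alone, since replicate 1 had 9 H3K27ac peaks near DGAT1, a number that 6 of the 105 windows (5.71%) did not exceed, and replicate 2 had 3, which 3 of the 105 (2.86%) did not exceed. For BCO2, 281 of 4003 windows (7.02%) held at least 11 H3K4me3 regions and 737 (18.4%) held at least 17 H3K27ac regions. Among those 281, the median was 16 H3K27ac regions and 169 (60.1%) held at most 17, so the mix of marks near BCO2 was a usual one for so many promoter-like regions. As for H3K27me3, 532 of the 4003 windows (13.3%) held at least 9 regions, as near BCO2. At least 7, as near DGAT1, were held by 750 of the 4525 (16.6%). By length the order was the reverse, since H3K27me3 covered 2.94% of the BCO2 window and 2.91% of the DGAT1 window, against 4.98% of the genome.

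**Figure D1:**
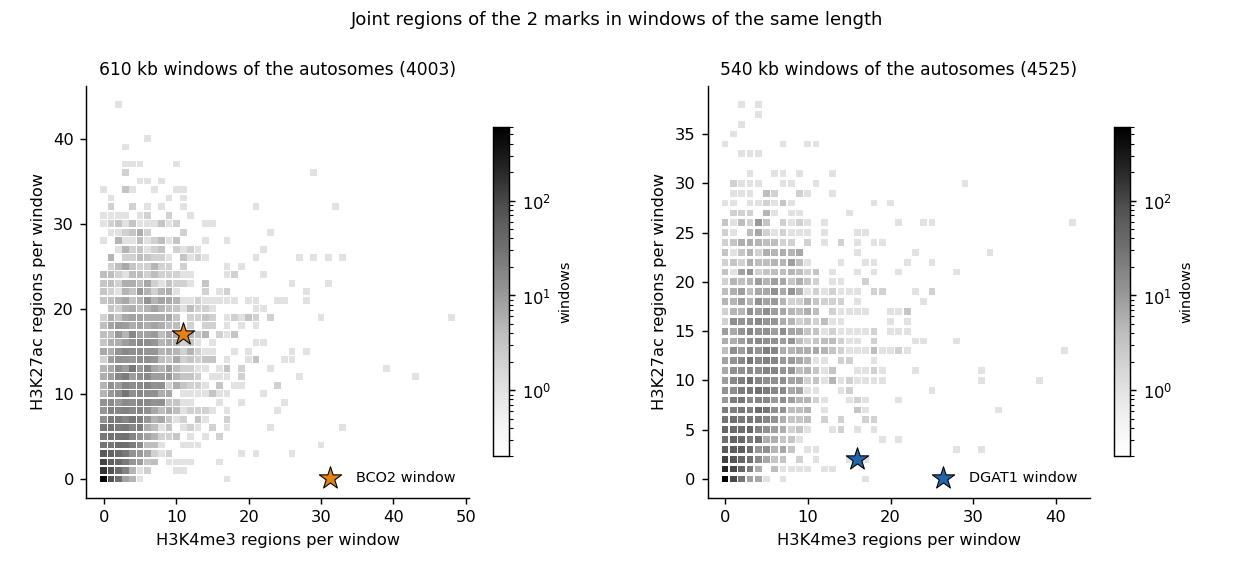
Number of joint H3K27ac regions (y axis) against joint H3K4me3 regions (x axis) in consecutive autosomal windows of 610 kb (left) and 540 kb (right), with the shade of each square giving the number of windows on a log scale. The star marks the BCO2 window, with 11 H3K4me3 and 17 H3K27ac regions, inside the main body of windows, and the DGAT1 window, with 16 and 2, at the lower edge.

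Within the BCO2 sweep region there were 2 promoter-like regions and 2 enhancer-like regions, and no H3K27me3. The first promoter-like region (chr15:21930975-21933072) had 160 H3K4me3 tags in replicate 1 and 554 in replicate 2, at 44.6-fold and 76.5-fold enrichment over the input. Replicate 2 was 2.93 times as high in normalised tags (1.55 on the log2 scale), the widest gap between the animals among the 11. The called peak was shorter in replicate 1, and per kb of peak the difference was 0.26 on the log2 scale. The H3K27ac region over it (chr15:21930817-21933712) had 467 and 513 tags at 40.8-fold and 38.4-fold, nearly equal in both animals.

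The second promoter-like region of the sweep (chr15:21944374-21948480) was the larger, with 612 tags in replicate 1 and 1301 in replicate 2, at 43.4-fold and 76.9-fold. Replicate 2 was again the higher, by 0.85 on the log2 scale, or 0.65 per kb of peak. Its H3K27ac region (chr15:21943645-21948417) had 864 and 867 tags at 34.6-fold and 31.1-fold, and the summits of the 2 animals lay 1 bp apart. It was the H3K27ac region with the most tags in the window and exceeded 75.1% of all H3K27ac regions in mean normalised tags.

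The first enhancer-like region (chr15:21926810-21930753) lay next to the smaller promoter-like region and had 351 H3K27ac tags in replicate 1 and 544 in replicate 2, at 28.5-fold and 25.9-fold. It was not free of H3K4me3 in both animals. Replicate 2 had an H3K4me3 peak of 254 tags in it (chr15:21927059-21928647) at an FDR of 1.69%, above the 1% limit of the joint list, and replicate 1 had none. The second enhancer-like region (chr15:21977378-21981989) had 528 and 581 tags at 30.7-fold and 28.6-fold, with summits 69 bp apart. No H3K4me3 peak of either library met it at any FDR.

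Replicate 2 had 2 further H3K27ac peaks in the BCO2 sweep region that replicate 1 lacked. One (chr15:21907870-21909623) had 264 tags at 23.8-fold. The other (chr15:21955275-21959600) had 680 tags at 17.7-fold and a score of 106, where the score is the log10 of the p-value with its sign changed, times 10. It was the largest of the 8 H3K27ac peaks near BCO2 found in 1 library. Both libraries had an H3K4me3 peak there outside the joint list. That of replicate 1, with 97 tags at an FDR of 4.75%, lay beside this H3K27ac peak. That of replicate 2, with 383 tags at 1.43%, overlapped it. Just beyond the sweep region, 8.96 kb from its end, lay a short promoter-like region (chr15:22018958-22019949) with 301 and 395 tags, under an H3K27ac region (chr15:22017877-22020595) of 336 and 217 tags.

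The 2 promoter-like regions of the window with the most normalised tags lay before the sweep region, and the next was the second one of the sweep region, described above. The longest (chr15:21825537-21832527, 6991 bp, 67.5 kb away) had 1623 and 2900 tags and ranked 508 of 16098 by mean normalised tags. A second H3K4me3 peak of replicate 1 in it, of 164 tags at an FDR of 2.07%, was above the limit. With both peaks replicate 1 had 1787 tags. This promoter-like region carried an H3K27ac region of 744 and 682 tags. The densest (chr15:21772163-21775293) had 1139 and 1410 tags at 80.6-fold and 89.0-fold. Another (chr15:21811551-21813818) reached the highest enrichment of the window in replicate 2, 112-fold, with 564 and 962 tags. The remaining promoter-like regions on that side had 191 to 538 tags in replicate 1 and 310 to 756 in replicate 2. Among them, the neighbours chr15:21732413-21733528 and chr15:21733597-21735555 were the 2 promoter-like regions without joint H3K27ac, and replicate 1 alone had an H3K27ac peak of 320 tags at the second.

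Both active marks thinned out on the far side of the BCO2 sweep region. Of the 11 promoter-like regions, 8 lay before the sweep region, 2 in it and 1 after it, and of the 17 H3K27ac regions 11 lay before, 4 in it and 2 after. The last promoter-like region ended at 22019949 and the last H3K27ac region, an enhancer-like one with 330 and 282 tags, at 22093892, while the window runs to 22260000. Of the 9 H3K27me3 regions, 5 lay after the sweep region, at 52.5 to 136 kb, and 4 before it, at 174 to 231 kb. None of them overlapped an active region of the window, where 16.3% of all promoter-like regions and 2.61% of all H3K27ac regions overlapped H3K27me3. With 0 of 11 and 0 of 17, the intervals reach 25.9% and 18.4%, so neither share can be placed below that of the genome.

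The 8 enhancer-like regions near BCO2 varied in tags, with 283 to 756 in replicate 1 and 275 to 819 in replicate 2. They were more alike in normalised tags per kb of peak, at 0.912 to 1.18 in replicate 1 and 0.870 to 1.03 in replicate 2. In normalised tags per kb of peak, their median was 1.01 in replicate 1 and 0.956 in replicate 2, beside 1.01 and 1.00 over all 26492 enhancer-like regions. The 9 H3K27ac regions over promoter-like regions had medians of 1.14 and 0.958 on the same scale, against 1.14 and 1.06 over the genome. Of the 8 enhancer-like regions, 3 held an H3K4me3 peak of some library when no FDR limit was set, beside 41.8% of all enhancer-like regions. The cluster with the most tags (chr15:21693435-21699945 and chr15:21700699-21705162) lay 200 and 195 kb before the sweep region. Its first region had 500 and 819 tags and its second 756 and 639, and both met H3K4me3 peaks of both libraries. In the first region, the H3K4me3 peak of replicate 1 had 262 tags at an FDR of 0.19%, within the 1% limit. That of replicate 2 had 338 tags at 1.03%, just above the limit. In the second region, the FDRs were 2.22% and 3.96%.

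**Figure D2:**
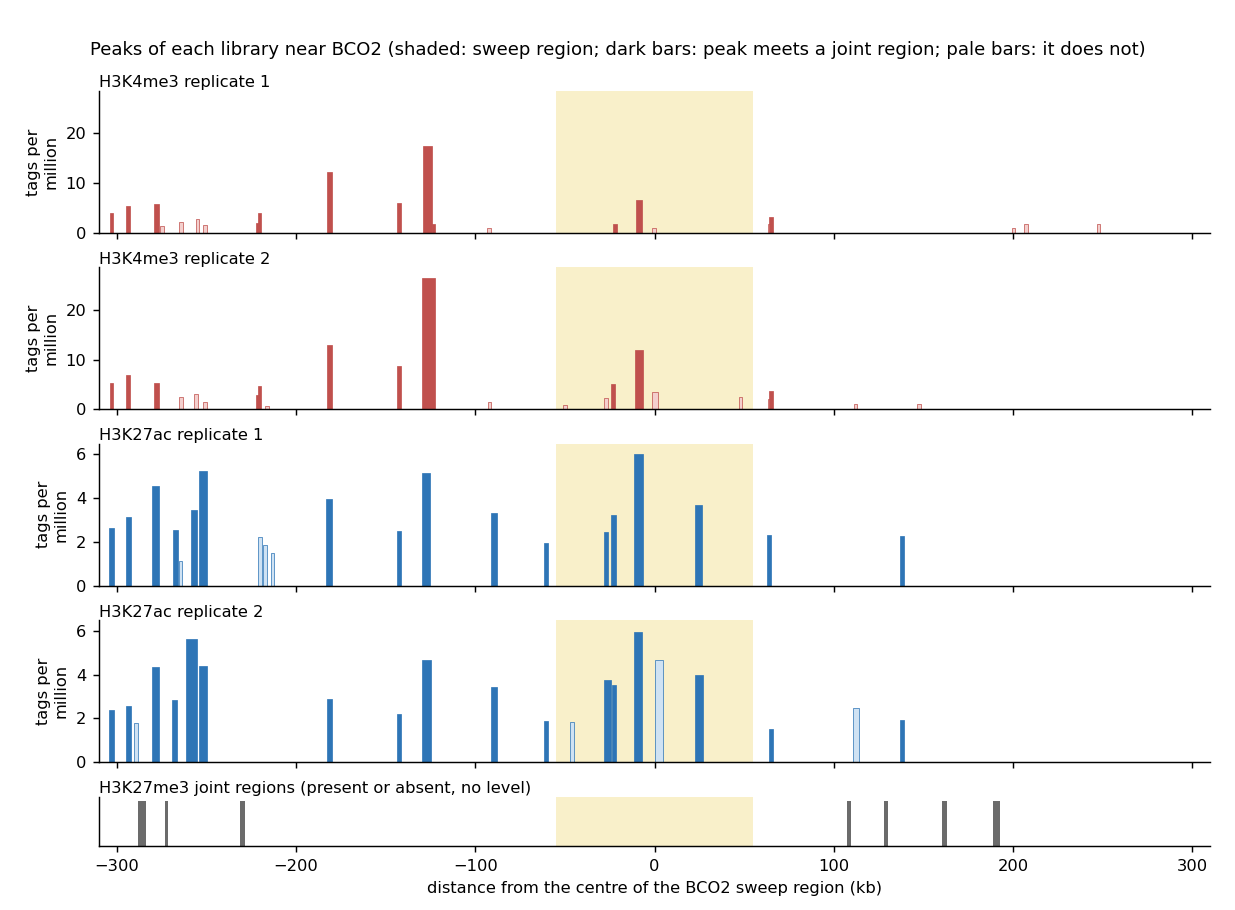
Normalised tags (per 1000000) of each peak (bar height) against its distance in kb from the centre of the BCO2 sweep region (shaded), for each H3K4me3 and H3K27ac library, with the joint H3K27me3 regions as marks without a level in the bottom row. Dark bars meet a joint region, pale bars do not, and peaks under 2 kb are drawn 2 kb wide. The 11 promoter-like regions end shortly after the sweep region, and the tall pale H3K27ac bar in it, of 680 tags, is in replicate 2 alone.

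The DGAT1 sweep region met 2 promoter-like regions and no joint H3K27ac or H3K27me3 region. The first (chr9:13565301-13571067, 5767 bp) spanned the start of the sweep region and was the largest promoter-like region of the window. It had 1662 tags in replicate 1 and 1410 in replicate 2, at 66.7-fold and 62.1-fold, and ranked 1390 of 16098. In replicate 1 an H3K27ac peak of 501 tags lay inside it (chr9:13565532-13569513), at 23.6-fold and a score of 105, and ended 488 bp before the sweep region. Replicate 2 had no H3K27ac peak there at any FDR.

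The second promoter-like region (chr9:13592960-13596688) lay inside the sweep region, with 862 and 885 tags at 57.2-fold and 71.2-fold. The animals differed by -0.20 on the log2 scale of normalised tags. Replicate 1 alone had an H3K27ac peak there as well (chr9:13593573-13595331), with 225 tags at 22.8-fold. At both promoter-like regions of the DGAT1 sweep region, then, H3K4me3 was called in both animals and H3K27ac in 1 of 2.

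The 2 joint H3K27ac regions of the DGAT1 window were short and lay far from the sweep region. The farther (chr9:13320348-13322182, 248 kb before it) had 320 and 277 tags at 21.7-fold and 22.9-fold, over a promoter-like region (chr9:13320600-13322155) of 302 and 547 H3K4me3 tags. The nearer (chr9:13458340-13460328, 110 kb before it) had 346 and 265 tags at 36.8-fold and 35.8-fold, with summits 2 bp apart. It was the only enhancer-like region of the window, and it held H3K4me3 peaks of both libraries that missed the joint list. By mean normalised tags the 2 exceeded 8.79% and 9.87% of all H3K27ac regions.

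The H3K27ac peaks of single libraries near DGAT1 lay mostly on promoter-like regions. Replicate 1 had 7 peaks that replicate 2 lacked, with 225 to 501 tags at 19.4-fold to 29.6-fold, and 6 of these 7 met a promoter-like region, where 19.1% of all 11851 such peaks of replicate 1 did. The single such peak of replicate 2 (chr9:13668616-13670767, 249 tags) met one too, where 4.39% of all 9515 did. Near BCO2 it was 1 of 4 in replicate 1 and 0 of 4 in replicate 2. The shares over the genome are not a like comparison for the DGAT1 window. H3K4me3 covered 8.07% of that window, against 2.07% of the genome, and 15 of its 16 promoter-like regions had no joint H3K27ac. With replicate 1 alone, 7 of the 16 promoter-like regions near DGAT1 (43.8%) carried H3K27ac, against 74.7% of all promoter-like regions. With replicate 2 alone it was 2 of 16 (12.5%), against 63.0%.

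Promoter-like regions continued on both sides of the DGAT1 sweep region, with 8 before it, 2 meeting it and 6 after it. The strongest outside it (chr9:13683459-13688619, 73.5 kb after it) had 1239 and 1147 tags, and its neighbour (chr9:13690028-13693587) had 768 and 570. Over the 15 promoter-like regions without joint H3K27ac, enrichment ranged from 44.6-fold to 69.7-fold in replicate 1 and 51.0-fold to 80.9-fold in replicate 2. Their medians were 55.6-fold and 63.1-fold, beside 50.8-fold and 60.7-fold over all 7219 promoter-like regions without H3K27ac. The nearest H3K27me3 region (chr9:13556184-13559384) ended 10.6 kb before the sweep region, another lay 146 kb before it, and the other 5 stood 117 to 156 kb after it. None of the 7 overlapped a promoter-like region.

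**Figure D3:**
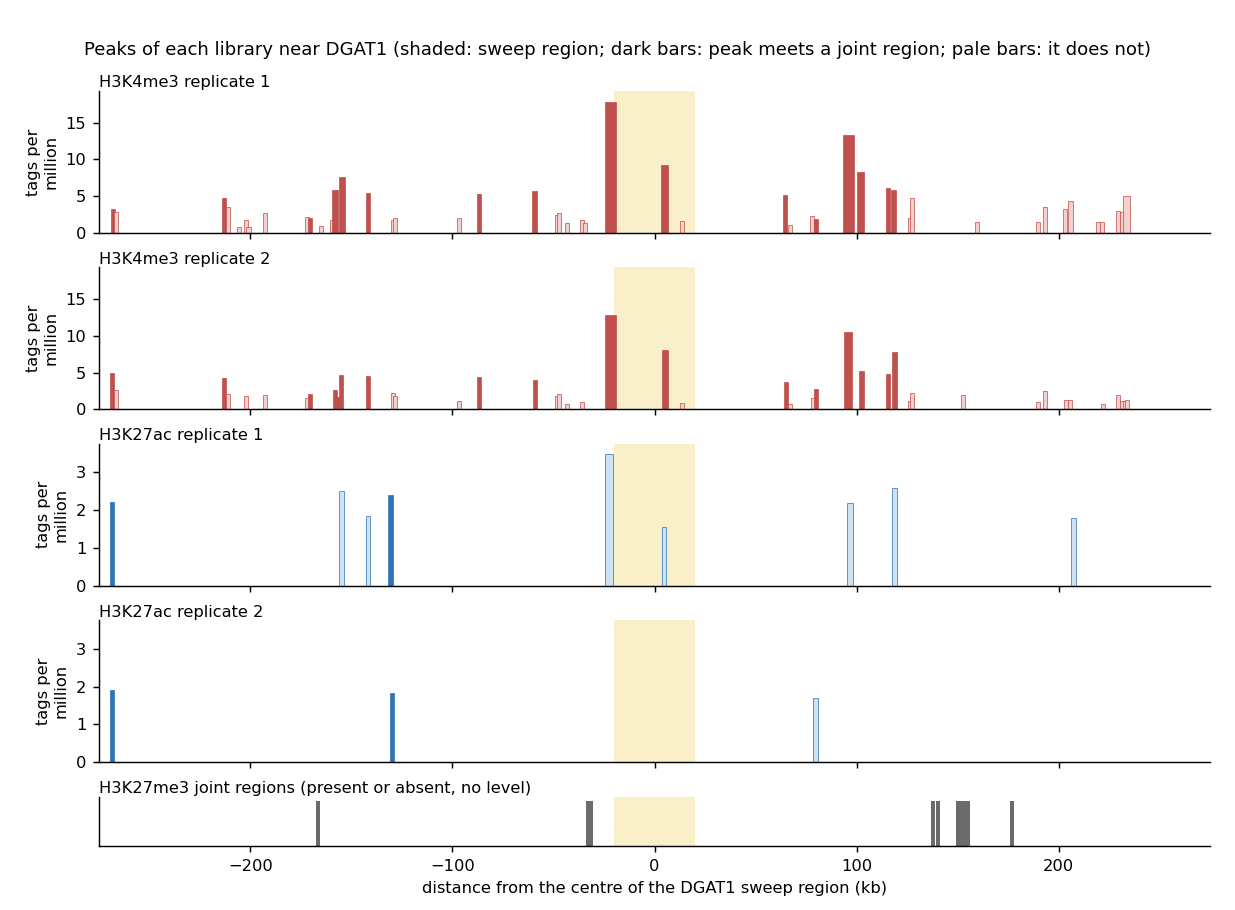
Normalised tags (per 1000000) of each peak (bar height) against its distance in kb from the centre of the DGAT1 sweep region (shaded), drawn as for BCO2. Dark H3K4me3 bars, which meet 1 of the 16 promoter-like regions, stand on both sides of the sweep region, while 7 of the 9 H3K27ac bars of replicate 1 and 1 of the 3 of replicate 2 are pale, in 1 library alone.

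Near BCO2 the libraries agreed on which peaks were present about as often as over the genome. Replicates 1 and 2 had 21 H3K27ac peaks each, of which 17 (81.0%, interval 60.0 to 92.3%) were found in both, beside 74.3% of all peaks of replicate 1 and 78.7% of replicate 2. Of the H3K4me3 peaks, 13 of 22 in replicate 1 and 11 of 23 in replicate 2 were within the 1% limit, beside 46.0% and 30.8% of all. Of those within it, 11 of 13 in replicate 1 (interval 57.8 to 95.7%) and 11 of 11 in replicate 2 (74.1 to 100%) were found in both, beside 72.1% and 86.6%. Each of these intervals holds the share of the genome. The stretches called in both libraries made up 76.0% of those called in either for H3K4me3, against 56.4% in the genome, and 63.4% for H3K27ac, against 54.2%.

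Near DGAT1 the agreement depended on the mark and on the FDR limit. For H3K27ac, 2 of 9 peaks of replicate 1 (22.2%) and 2 of 3 of replicate 2 (66.7%) were found in both, and the shared stretches made up 13.3% of the total. The peaks not shared included some of middling score. Of the 4 peaks of replicate 1 near DGAT1 with scores of 100 to 150, 1 was found in replicate 2, where 83.9% of the 10000 peaks with such scores were, and near BCO2 6 of 6 were. Those not shared near DGAT1 lay at the low end of that range, with scores of 100.32, 103.34 and 104.94. The 6 near BCO2 had scores of 107.08 to 149.0. Of all replicate 1 peaks with scores of 75 to 100, 70.1% were found in replicate 2. The number of peaks is small, and the difference between the animals has no further replicate.

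For H3K4me3 near DGAT1, 36 of the 48 peaks of replicate 1 and 16 of the 44 of replicate 2 were within the 1% limit. Of the 36, 16 (44.4%) were found within the limit in replicate 2, against 72.1% in the genome. All of the other 20 overlapped a peak of replicate 2 that had been called at an FDR of 1.18 to 4.67%. They had 143 to 464 tags in replicate 1, and the peaks over them in replicate 2 had 110 to 288. With no FDR limit, 41 of 48 peaks of replicate 1 (85.4%) and 43 of 44 of replicate 2 (97.7%) were found in both, against 76.4% and 61.2%. The 95% intervals were 72.8 to 92.8%, which holds the share of the genome, and 88.2 to 99.6%, which lies above it. These intervals cover counting error only and neighbouring peaks are not independent, so neither share was tested against that of the genome. By score, all 36 peaks of replicate 1 from 150 upward were shared, but 4 of 8 with scores of 100 to 150, where 74.1% of all such peaks were, and 0 of 3 with scores of 50 to 75, where 50.1% were. With no limit the merged regions numbered 41 instead of 16.

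The limit did not stand at the same score in both H3K4me3 libraries. Peaks with an FDR of 0.9 to 1.1% had a median score of 153 in replicate 1 and 256 in replicate 2. An example is a pair of peaks 106 kb after the DGAT1 sweep region, with 441 tags and a score of 561 in replicate 1 (chr9:13716237-13718209) and 239 tags and a score of 174 in replicate 2 (chr9:13716329-13717762). The first had an FDR of 0.06% and the second 1.60%, so the place is absent from the joint list. A score of 174 would have been within the limit in replicate 1. The same held for 2 peaks of replicate 1 near BCO2, whose partners in replicate 2 had FDRs of 1.03% and 1.4%.

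The ratio of H3K4me3 tags between the animals was lower near DGAT1 than near BCO2, and with 1 library per animal the difference was not tested. Near BCO2, replicate 2 had more normalised tags in 10 of 11 promoter-like regions, with a median log2 ratio of replicate 2 to replicate 1 of 0.38 (range -0.13 to 1.55). Near DGAT1 it had fewer in 12 of 16, with a median of -0.29 (range -1.17 to 0.62). Over all 16098 promoter-like regions the median was 0.34, with 23.8% lower in replicate 2, so the median of BCO2 was near that of the genome and that of DGAT1 below it. The sign of the median depended on the scaling near BCO2 and over the genome. Near DGAT1 the median was negative under each scaling, though only -0.03 per kb of peak. Scaled to the tags in peaks, the medians were -0.03 near BCO2, -0.71 near DGAT1 and -0.07 over the genome, with 6 of 11 and 14 of 16 regions lower in replicate 2. In normalised tags, all but the 2 extreme members, at 1.55 and -1.17, lay inside the central 95% of the genome, from -0.74 to 1.31. The region at -1.17 (chr9:13430637-13433362) had 541 tags in replicate 1 and 284 in replicate 2, but a second peak of replicate 2 in it, of 183 tags at an FDR of 2.0%, was above the limit. With both peaks replicate 2 had 467 tags and the ratio was -0.45, inside the central 95%.

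Peak length moved with the ratio. Per kb of peak, the median log2 ratio was 0.15 near BCO2, -0.03 near DGAT1 and 0.15 over the genome, and the count of regions lower in replicate 2 was 1 of 11, 9 of 16 and 30.4%. The difference between the animals and that between their libraries cannot be told apart.

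For H3K27ac near BCO2, the median log2 ratio was -0.08 over 17 regions (range -0.65 to 0.70), beside -0.07 over all 35266 and a central 95% from -1.28 to 0.91. Replicate 2 was lower in 11 of the 17, beside 58.7% of all, and per kb of peak in 15 of the 17, beside 58.4%, with a median of -0.10. The 2 regions near DGAT1 had ratios of -0.22 and -0.40, or -0.22 and 0.13 per kb of peak. Summits lay close together, at a median of 42 bp near BCO2 and 176 bp near DGAT1 for H3K4me3, and 78 bp near BCO2 for H3K27ac, beside 188 and 157 bp over the genome.

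**Figure D4:**
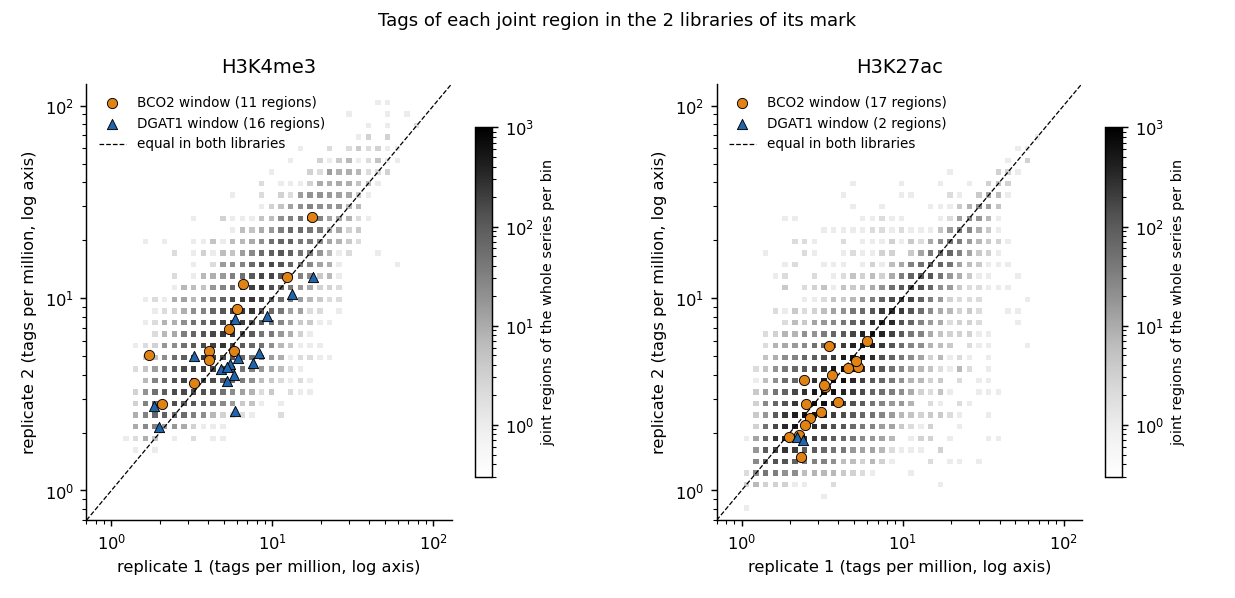
Normalised tags (per 1000000) of each joint region in replicate 2 (y axis) against replicate 1 (x axis), both on log axes, for H3K4me3 (left) and H3K27ac (right), with grey squares for all regions of the series and the dashed line for equal values. For H3K4me3, 10 of 11 BCO2 regions (circles) lie above the line and 12 of 16 DGAT1 regions (triangles) below it, while the 17 BCO2 regions for H3K27ac lie on both sides of it.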

How the data were processed

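ChIP-seq peak lists of perirenal adipose tissue from 2 merino fetuses were used, 1 library per mark and animal, with 1 pooled input. Reads had been mapped by the authors to Oar_v3.1 in CLC Genomics Workbench, and MACS 1.4.2 (version per the file headers) had been run on every library against the input. For each peak the authors deposited the count of tags, a score (-10 times the log10 of the p-value), the fold enrichment as a linear ratio over the input, and the FDR in percent. They also deposited joint lists, which hold positions. Merging overlapping peaks of both libraries gave all 16098 joint H3K4me3 regions at an FDR of at most 1% and 35265 of the 35266 joint H3K27ac regions at 10%. Both limits are on the FDR column in percent and are higher than those stated in the study's methods, for a reason not found here. The limit of the H3K27me3 list is 5%, by its name. 2 per-library H3K27me3 files were not used, because no labelled sample stands for them.

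Samples were grouped by mark and animal from the labels. A member is a peak or region that meets a window by at least 1 bp, and 1 bp also counts as overlap between marks or libraries. Tags were scaled to 1000000 tags left after duplicates and, where said, divided by the kb of peak. A region takes the tags of the peaks within the FDR limit that meet it. Peaks are bounded in each library separately, so tags depend on peak length. The input was shallower than the other libraries, so fold and FDR rest on few input tags. Shares have 95% Wilson intervals, which cover counting error only. With 1 condition and 2 animals no test was made. The 2 libraries of a mark come from separate fetuses.

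The genes and windows were chosen with earlier results of these data known. The genes named were BCO2, DGAT1 and those listed for the same sweep regions. Lists of pathway and marker genes needed gene positions in Oar_v3.1 and were not analysed here, and no sequence was available to print. Alternatives were other FDR limits, windows of 100 kb, each library alone, 50% reciprocal overlap and other scalings of the tags. Scripts (Python 3.11.15, numpy 2.4.6, scipy 1.17.1, matplotlib 3.10.9) were tested on simulated peaks.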

Additional observations from a re-analysis of the deposited data

How the results depend on the processing

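Counts of regions depended on the FDR limit, while the ordering of the loci held for every limit that left regions to count. With no FDR limit, promoter-like regions numbered 17 near BCO2 and 41 near DGAT1, and at an FDR of at most 0.1% none was left at either locus (0 and 0). H3K27ac regions at an FDR of at most 5% numbered 11 near BCO2 and 1 near DGAT1. Within 100 kb of the sweep regions, 5 promoter-like and 10 H3K27ac regions remained near BCO2, and 10 and 0 near DGAT1. Without one library or the other, counts ranged from 11 to 13 promoter-like and 21 to 21 H3K27ac regions near BCO2, and from 16 to 36 and 3 to 9 near DGAT1, where the higher count of each range is that of replicate 1. H3K27ac regions free of any H3K4me3 peak at any FDR numbered 5 near BCO2 and 0 near DGAT1. The median log2 ratio of H3K27ac tags near DGAT1, over 2 regions, was -0.18 scaled to the tags in peaks and -0.04 per kb of peak, the latter a scaling chosen after seeing the data. For H3K4me3 the ratio scaled to the tags in peaks was -0.03 near BCO2, where it changed sign, and -0.71 near DGAT1, and for H3K27ac near BCO2 it was 0.06, also with a change of sign. The causes were not tested. Counting these 3, 32 alternative values moved by at most 1.5 times or by less than the spread over regions. The other 16 moved by more. No paired analysis was possible because the results come from no test, although both marks were measured in the same 2 fetuses. With 2 animals and a shallow input, a peak missing from 1 library is a call below a threshold and not a measured absence.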
